A study of Mus musculus with 6 samples.

Results

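The hepatic carriers of bile acids and organic anions, 10 genes, were followed in the liver of mice that lack SIRT1, a NAD-dependent protein deacetylase, in that organ. The members are the genes Slc10a1, Slco1b2, Slco1a1, Slco1a4, Slco2b1, Abcb11, Abcb4, Abcc2, Abcc3 and Abcc4, taken by gene name from the arrays' own annotation with every probe kept. They hold 14 of the 41174 non-control probes, of which 13 were bright enough to be tested. A probe was tested if its signal was well above background in all 3 pools of 1 group or both, which 23592 probes met.

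Hepatocytes take up bile acids and other organic anions from sinusoidal blood and secrete them across the canalicular membrane into bile. Uptake is shared by the sodium-dependent carrier NTCP and the sodium-independent organic anion transporting polypeptides (OATPs), and secretion by pumps of the ATP-binding cassette (ABC) family. A further set of ABC pumps on the sinusoidal side returns bile acids and conjugates to blood. Several of these genes are known targets of the nuclear receptors FXR, PXR and CAR and of the oxidative stress factor NRF2.

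The control group was Lox control mice and the other group was liver-specific SIRT1 knockout mice (SIRT1 LKO), 6 mice each, all male, 10 weeks old, on a 95% C57BL/6 background and on chow. Both groups fed freely and were killed at 4 pm, a time chosen by the submitters to look at processes governed by the fatty acid receptor PPAR-alpha in unfasted animals. Liver RNA of 2 mice was pooled for each of 3 replicates per group, and 500 ng was labelled with Cy3 for 1 array each. Neither the promoter that drove the Cre recombinase nor the deleted part of Sirt1 is named in the labels used here. In bulk liver, fewer cells of a type and less RNA per cell cannot be told apart.

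Levels below are log2 processed intensity minus the array's 75th percentile, so that 0 is the intensity of a fairly bright probe on that array and not the absence of signal. A difference is LKO minus control on the same log2 scale, with its standard error (SE) from limma, and passes the test at a Benjamini-Hochberg adjusted p under 0.05 over all tested probes. The 75th percentile of intensity lay between 1005 and 1289 on the 6 arrays, and 52.2% to 66.4% of probes were well above background. There are 2 sources for LKO pool 3: its column in the deposited value table equalled the scanner intensity within 1% for 0.853% of probes, against 99.8% in each of the other 5 pools. Every result is therefore given from the 6 scanner arrays first, and the main ones also from the value table and from the 5 scanner arrays that remain when LKO pool 3 is left out. The control arrays shared slide 1, LKO pools 1 and 2 shared slide 2, and LKO pool 3 was on slide 3. No slide held both groups, so a difference between slides cannot be fully told apart from one between genotypes, and the fit with the slide as a random block is given beside the 3 probes that passed in any of these sources.

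The 2 Sirt1 probes did not pass the test. The first read 0.29, 0.37 and 0.24 in control pools 1 to 3 and -0.07, 0.09 and 0.16 in LKO pools 1 to 3, a difference of -0.24 (adjusted p = 0.243), and the second differed by -0.02 (adjusted p = 0.941). Neither can be placed relative to the deleted part of the gene, so they do not check the labels. Hepatocyte identity was plain in both groups: albumin (Alb) averaged 8.93 ± 0.19 in controls and 9.10 ± 0.25 in LKO (SD, n = 3 pools each), and all 11 hepatocyte markers on the array were bright enough to test.

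The sequences below are those of the probes on which the largest differences between probes of 1 gene rest, with Abcb4 measured at a pair of sites and Abcc3 shown at its upstream site. Each is a 60-base array probe, given 5′ to 3′ as deposited, with coordinates on mm7.
Abcb4 upstream probe A_52_P223194, chr5:8978600-8978659: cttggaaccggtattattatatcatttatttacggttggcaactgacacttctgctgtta
Abcb4 downstream probe A_51_P249118, chr5:8996752-8996811: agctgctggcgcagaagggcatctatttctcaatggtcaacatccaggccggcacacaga
Abcc3 upstream probe A_52_P622067, chr11:94473410-94473469: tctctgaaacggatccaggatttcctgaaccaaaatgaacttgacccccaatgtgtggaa
No exon is assigned to them, since no genome of that build was used here. Among the probes of the 10 genes and of the related genes Slco1a5 and Slco1a6, the longest run of bases shared by any pair was 11.

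Promoters were compared because several of these carriers are textbook targets of shared nuclear receptors. RefSeq promoter windows on GRCm38.p6 were found for 9 of the 10 genes, 13 windows in all, and the 250 bases before each start were searched on both strands. The 2 genes with a match to the inverted repeat IR1, the kind of site bound by FXR, are printed with all motif matches in capitals.
Abcb11 promoter, chr2:69342617-69342866, minus strand: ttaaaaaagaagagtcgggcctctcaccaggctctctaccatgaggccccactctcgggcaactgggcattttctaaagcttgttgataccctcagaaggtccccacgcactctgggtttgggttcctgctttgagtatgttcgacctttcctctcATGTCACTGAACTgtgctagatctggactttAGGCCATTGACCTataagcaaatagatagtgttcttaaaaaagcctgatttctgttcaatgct
Slco1b2 promoter, chr6:141629268-141629517, plus strand: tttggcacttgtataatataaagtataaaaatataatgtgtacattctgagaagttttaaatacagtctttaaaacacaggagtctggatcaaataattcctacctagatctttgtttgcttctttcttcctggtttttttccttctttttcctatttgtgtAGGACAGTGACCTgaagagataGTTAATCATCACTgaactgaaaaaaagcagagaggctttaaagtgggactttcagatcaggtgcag
The search allowed 2 mismatches to AGGTCANTGACCT, which 2 of the 13 windows and 0.959% of 32851 windows of the same length hold. Abcb11 has AGGCCATTGACCT beginning 63 bases before the start, with 1 mismatch, and ATGTCACTGAACT at 94 bases, with 2. Slco1b2 has AGGACAGTGACCT at 88 bases, with 1 mismatch, and its matches to the half-site and to the liver factor motif HNF1 are also in capitals. The nuclear receptor half-site AGGTCA, which overlaps IR1, stood in 5 of the 13 windows (5 genes) and in 14% of all windows. An HNF1 motif GTTAATNATTAAC with up to 3 mismatches stood in 5 of the 13 (Abcc2, Slc10a1, Slco1a1 and Slco1b2) and in 7.58% of all windows. The core of the antioxidant response element, TGACNNNGC, stood in 3 of the 13 (Abcc2 and Abcc4) and in 10.2% of all windows.

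Across the whole set, no transporter probe passed the test on the 6 scanner arrays, where 0.0636% of all tested probes did. At an unadjusted p under 0.05 there were 7 of 13 (3 higher and 4 lower in LKO), against 21.2% of all tested probes (10.7% higher and 10.5% lower). The pools of the groups did not overlap for 8 of the 13, with LKO above every control for Slc10a1, Slco1a4 and Slco2b1 and below every control for Slco1b2 and both probes of Abcb4 and of Abcc3, against 28.9% of all tested probes measured in every pool (14.9% above and 14% below). Differences were below 0 for 10 of the 13, with a median of -0.18. These include both probes of Slco1a1, of Abcb4 and of Abcc3, so they are not as many genes. Over all tested probes 52.7% were above 0 and the median was 0.02.

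With the value table, 3 of 13 passed, where 1.25% of all probes did (0.599% higher and 0.65% lower): Slco2b1 rose, and the upstream probes of Abcb4 and Abcc3 fell. The same 3 probes passed on the scanner arrays without LKO pool 3, where 2.96% of all tested probes did (1.46% higher and 1.5% lower). Those 3 calls are therefore lost or gained with the source of a single pool. At an unadjusted p under 0.05 there were 6 of 13 with the value table (26.3% of all probes) and 4 of 13 without LKO pool 3 (30.6% of all probes), the latter a share near that of all probes. The groups did not overlap for 7 of 13 with the value table (34.1% of all probes) and for 8 of 13 without LKO pool 3, where 51.7% of all probes did not, again a share near that of all probes. Median differences of the 13 were -0.06 and -0.04 in these 2 sources, against 0.04 and 0.02 over all probes. A probe left out by the filter, the dimmer of 2 for Abcc4, is described with its gene.

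**Figure D1:**
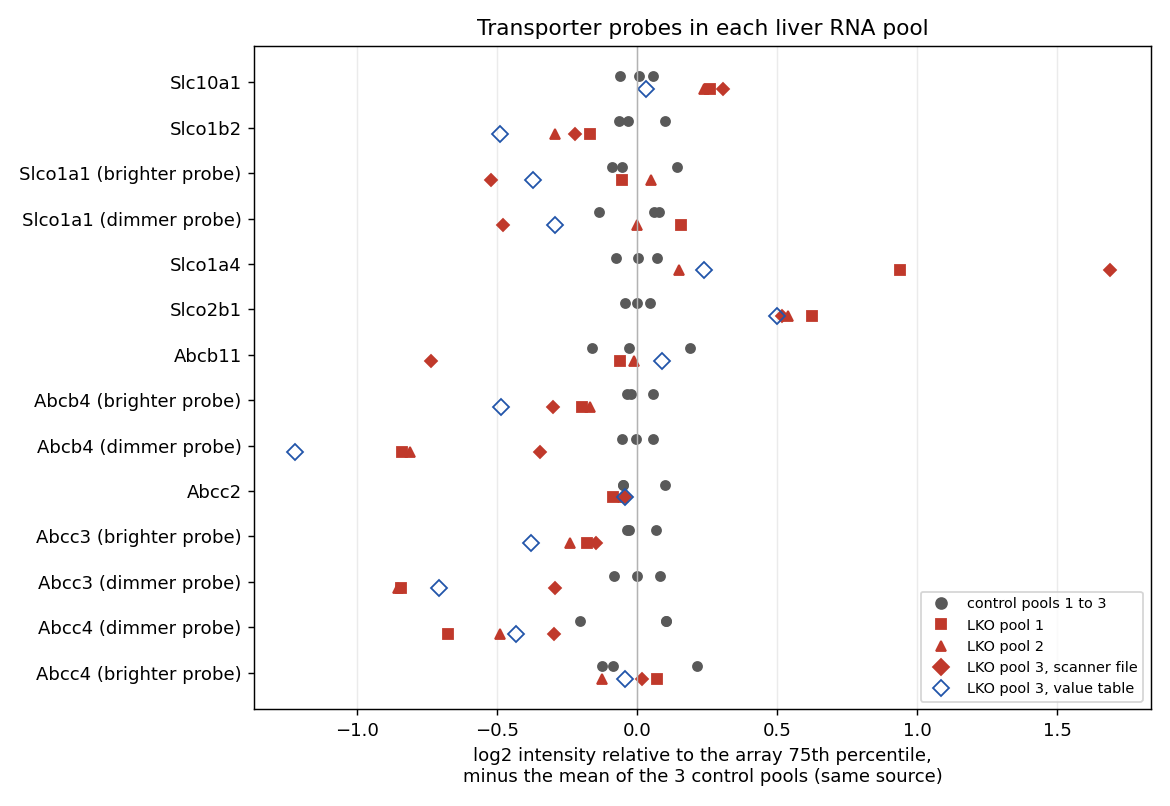
The log2 level of each of the 14 transporter probes in each RNA pool is plotted as the distance from the mean of the 3 control pools, with control pools in grey, LKO pools 1 to 3 in red and the value table's LKO pool 3 as an open diamond. The LKO symbols of Slco2b1 lie 0.50 to 0.63 to the right of the control mean in both sources, while for Abcb11 the scanner symbol of LKO pool 3 alone lies far left.

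Of the uptake carriers, Slco2b1, Slco1a4 and Slc10a1 read higher in LKO and Slco1b2 lower. Slco2b1 encodes OATP2B1, a sodium-independent carrier of steroid sulfates and many drugs. Its probe (A_52_P255782, chr7:95689295-95689354 on mm7) read 5.31, 5.40 and 5.35 in control pools 1 to 3 and 5.98, 5.89 and 5.87 in LKO pools 1 to 3. Every LKO pool was above every control pool, and the spread within each group (SD 0.05 and 0.06) was a small part of the distance between them. The difference was 0.56 (SE 0.09, 95% interval 0.35 to 0.77), or 1.48-fold, with an adjusted p of 0.0765. The value table gave 0.55 (adjusted p = 0.0490) and the arrays without LKO pool 3 gave 0.58 (adjusted p = 0.0482), so that Slco2b1 rose past the threshold in both. With the slide as a random block, on the 6 scanner arrays, the difference was 0.56 and its adjusted p 0.341.

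Slco1a4 encodes OATP1A4, an uptake carrier of bile acids and cardiac glycosides that is a classic target of PXR. It read 1.47, 1.32 and 1.40 in control pools 1 to 3 and 2.34, 1.55 and 3.09 in LKO pools 1 to 3. All 3 LKO pools were above the controls, yet they lay apart from each other, with an SD of 0.77 against 0.07 in controls. The difference of 0.93 (SE 0.36, 95% interval 0.06 to 1.79) was numerically the greatest of the 13 and did not pass (adjusted p = 0.213). LKO pool 3 read 1.64 in the value table, which gave 0.44 (adjusted p = 0.242), and without that pool the difference was 0.54 (adjusted p = 0.195). Slco1a5, a neighbouring family member that is not among the 10, read -2.44, -2.52 and -2.51 in control pools and -1.58, -2.18 and -0.92 in LKO pools, in the same order of pools as Slco1a4. In the value table LKO pool 3 read -2.16 for Slco1a5. The other Slco1a5 probe was not well above background on any array.

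Slc10a1 encodes NTCP, the main sodium-dependent uptake carrier of conjugated bile acids. It read 5.75, 5.81 and 5.86 in control pools and 6.07, 6.05 and 6.11 in LKO pools, with no overlap. The difference was 0.27 (SE 0.09, 95% interval 0.06 to 0.48) and did not pass (adjusted p = 0.164). In the value table LKO pool 3 read 5.84, within the range of the controls, and the difference was 0.18 (adjusted p = 0.295).

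Slco1b2 encodes OATP1B2, the abundant hepatocyte carrier of unconjugated bile acids and bilirubin. It read 7.89, 7.76 and 7.72 in control pools and 7.62, 7.49 and 7.57 in LKO pools, so that LKO pools were lower without overlap. The difference was -0.23 (SE 0.10, 95% interval -0.46 to -0.00065) with an adjusted p of 0.235. In the value table LKO pool 3 read 7.30, and the difference was -0.32 (adjusted p = 0.141).

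Slco1a1 encodes OATP1A1, an uptake carrier expressed more in male than in female mouse liver. The first of its 2 probes, which lie 379 bp apart, read 3.12, 3.16 and 3.36 in control pools and 3.16, 3.26 and 2.69 in LKO pools. The second read 3.28, 3.07 and 3.26 in control pools and 3.36, 3.20 and 2.73 in LKO pools. At both probes LKO pools 1 and 2 overlapped the controls and only LKO pool 3 was below them. The differences were -0.18 (adjusted p = 0.579) and -0.11 (adjusted p = 0.759), and without LKO pool 3 they were 0.00 and 0.08.

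At the canalicular membrane, Abcb11 and Abcc2 overlapped between the groups, and Abcb4 read lower in LKO at both of its probes. Abcb11 encodes BSEP, the pump that secretes bile salts into bile and a textbook FXR target. It read 6.79, 7.0 and 6.65 in control pools and 6.75, 6.80 and 6.08 in LKO pools. LKO pool 3 was the single low value, and the value table gave 6.90 for the same pool. The difference was -0.27 (SE 0.22, 95% interval -0.79 to 0.25; adjusted p = 0.501) on the scanner arrays. From the value table it was 0.01, and leaving out LKO pool 3 gave -0.04. The interval on the 6 arrays leaves room for a difference of over 0.7 downward, so similar levels are not shown.

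Abcc2 encodes MRP2, the canalicular exporter of conjugated bilirubin and glutathione conjugates. It read 4.25, 4.25 and 4.40 in control pools and 4.21, 4.25 and 4.25 in LKO pools, which overlap. Its difference of -0.06 (95% interval -0.28 to 0.16; adjusted p = 0.741) was the same within 0.01 in the 3 sources.

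Abcb4 encodes MDR2, the flippase that delivers phosphatidylcholine to bile. Its upstream probe read 2.85, 2.79 and 2.74 in control pools and 1.95, 1.98 and 2.45 in LKO pools, with LKO pools 1 and 2 well below LKO pool 3. Its downstream probe, 18152 bp away, read 6.82, 6.92 and 6.84 in control pools and 6.66, 6.69 and 6.56 in LKO pools. At both sites every LKO pool was below every control pool. The upstream difference was -0.67 (SE 0.15, 95% interval -1.03 to -0.30; adjusted p = 0.104) and the downstream difference -0.22 (adjusted p = 0.231). In the value table LKO pool 3 read 1.57 upstream, and the upstream probe fell by 0.96 (adjusted p = 0.0483). Without LKO pool 3 it fell by 0.82 (adjusted p = 0.0423), while the downstream difference was -0.28 and -0.18 in these sources and did not pass. With the slide as a random block the upstream difference was -0.64 and its adjusted p 0.371.

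On the sinusoidal side, both Abcc3 probes read lower in LKO and Abcc4 overlapped. Abcc3 encodes MRP3, which exports glucuronides and bile acids to blood. Its upstream probe read -1.32, -1.24 and -1.16 in control pools and -2.08, -2.10 and -1.53 in LKO pools. Its downstream probe (A_51_P449878, chr11:94452396-94452455 on mm7), 21014 bp away, read 5.47, 5.46 and 5.57 in control pools and 5.32, 5.26 and 5.35 in LKO pools. As for Abcb4, LKO was below the controls at both sites without overlap, and LKO pools 1 and 2 were the lowest upstream. The upstream difference was -0.66 (SE 0.17, 95% interval -1.08 to -0.25; adjusted p = 0.122) and the downstream difference -0.19 (adjusted p = 0.274). The upstream probe fell by 0.80 with the value table (adjusted p = 0.0431) and by 0.85 without LKO pool 3 (adjusted p = 0.0423). The downstream probe did not pass in either, with differences of -0.27 and -0.21. With the slide as a random block the upstream difference was -0.63 and its adjusted p 0.402.

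Abcc4 encodes MRP4, another sinusoidal exporter of bile acids and sulfated conjugates that is usually low in healthy liver. Its tested probe read -1.39, -1.43 and -1.09 in control pools and -1.23, -1.43 and -1.29 in LKO pools, which overlap, with a difference of -0.01 (adjusted p = 0.965). The other probe, 1411 bp away, exceeded the background threshold on 1 of 3 control arrays and on 0 of 3 LKO arrays and was not tested.

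**Figure D2:**
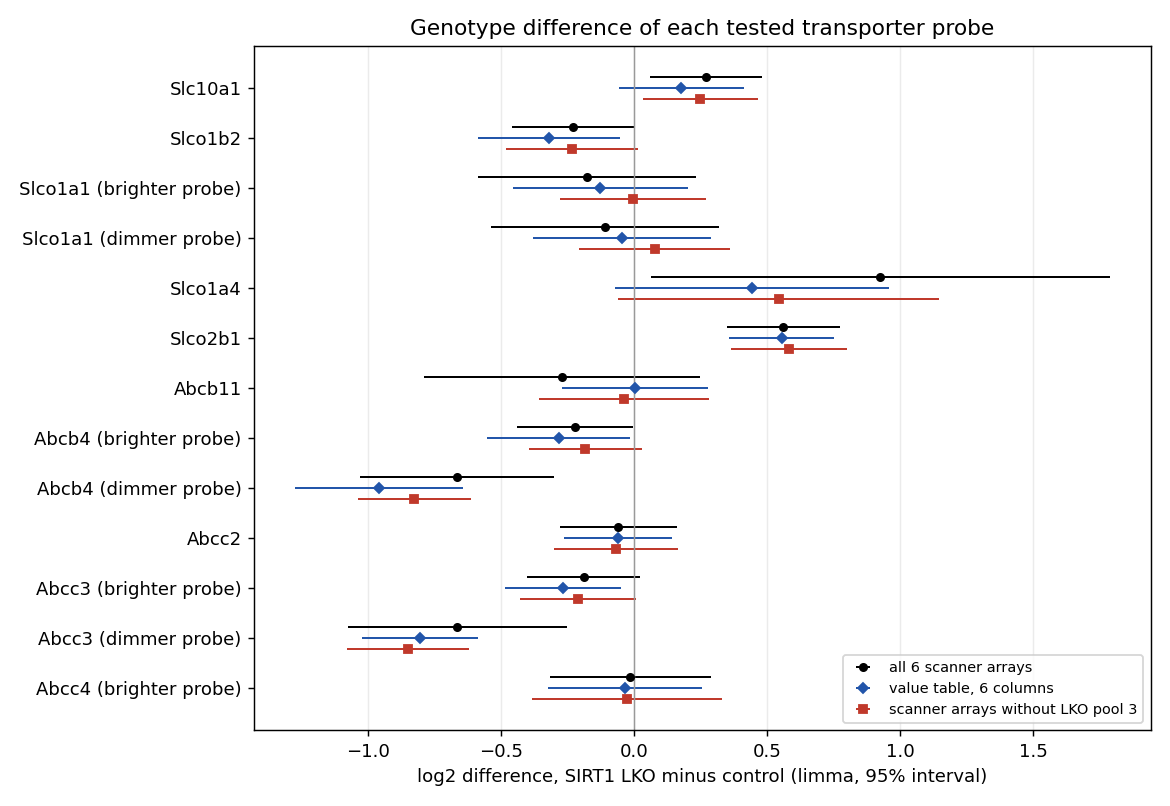
The log2 difference between SIRT1 LKO and control is plotted for the 13 tested probes with its 95% limma interval, from the 6 scanner arrays (black), the value table (blue) and the scanner arrays without LKO pool 3 (red). The intervals of Slco2b1 and of the dimmer (upstream) probes of Abcb4 and Abcc3 stay clear of 0 in all 3 sources.

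The distance between the upstream and downstream probes of a gene was then set beside that of other genes. Relative to the control mean, the upstream minus downstream log2 value of Abcb4 was -0.64 in LKO pool 1, -0.64 in pool 2 and -0.05 in pool 3, and that of Abcc3 was -0.66, -0.62 and -0.14. In the value table LKO pool 3 stood at -0.74 for Abcb4 and at -0.33 for Abcc3. Over 866 probe pairs of 1 gene at least 10 kb apart, the median was -0.10, -0.08 and -0.02 in LKO pools 1 to 3 and 0.13, -0.03 and -0.10 in control pools 1 to 3. Of these pairs, 12.1% stood at or below Abcb4 and 12.2% at or below Abcc3 in the mean of LKO pools 1 and 2. RNA integrity values per pool were not used here, and their part in the distance between the probes was not tested. The 6 brightest transporter probes (Abcb11, Slc10a1, Slco1b2, Slco2b1 and the downstream probes of Abcb4 and Abcc3) were read from the scanner's low-gain scan, scaled up, on all 6 arrays, and none was saturated.

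**Figure D3:**
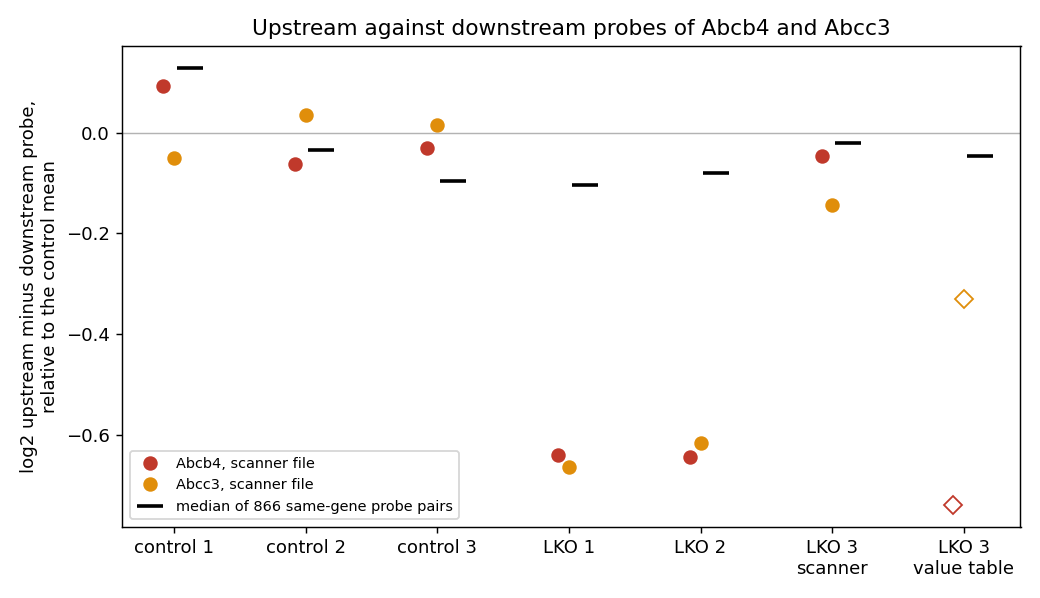
The upstream minus downstream log2 value of Abcb4 and Abcc3 is plotted for each pool relative to the control mean, with filled circles for scanner files, open diamonds for the value table and black bars for the median of 866 same-gene probe pairs. LKO pools 1 and 2 lie between -0.66 and -0.62 for both genes, and LKO pool 3 lies at -0.05 and -0.14 on the scanner array.

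No gene that makes or senses bile acids passed the test on the 6 arrays. The counts of list genes at an unadjusted p under 0.05 stand against 21.2% of all tested probes. Of 19 tested genes of bile acid synthesis and conjugation, 8 were higher and 11 lower with none past the test (4 at an unadjusted p under 0.05, a share near that of all probes). Cyp7a1, the rate-limiting enzyme of the classical pathway, differed by 0.31 (adjusted p = 0.589) and Cyp8b1 by 0.01, but by -0.02 and -0.28 from the value table. Cyp7b1 differed by -0.54 (adjusted p = 0.203). Akr1d1, a steroid reductase of the pathway, differed by 0.87 (adjusted p = 0.0929). Of 20 sensors and regulators, 11 were higher and 9 lower with none past the test (4 at an unadjusted p under 0.05). FXR itself (Nr1h4) differed by -0.01, and by -0.10 from the value table. Its target SHP (Nr0b2) differed by -1.05 (SE 0.52; adjusted p = 0.299), and by -0.52 from the value table. PXR (Nr1i2) differed by 0.66 (adjusted p = 0.506). CAR (Nr1i3) differed by 0.21 on the 6 arrays, 0.04 when LKO pool 3 was left out and -0.07 from the value table, so its direction turned with the source. Hnf4a differed by -0.08 and Fgfr1 by -0.30 (-0.11 from the value table). Without LKO pool 3, Keap1, the repressor of NRF2, fell by 0.61 (adjusted p = 0.0492) and the transcription factor gene Cebpb rose by 0.64 (adjusted p = 0.0487). On the 6 arrays these differed by -0.54 (adjusted p = 0.0953) and 0.37 (adjusted p = 0.383), and from the value table by -0.53 (adjusted p = 0.0656) and 0.55 (adjusted p = 0.0644).

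Of 12 other canalicular transporters and flippases, 5 were higher and 7 lower with none past the test (4 at an unadjusted p under 0.05). Abcb1b, a multidrug pump closely related to Abcb4, differed by -0.54 (adjusted p = 0.0820), while its other tested probe differed by 0.11. The first of these probes fell by 0.67 with the value table (adjusted p = 0.0490) and by 0.60 without LKO pool 3 (adjusted p = 0.0477). Both probes of the sulfate conjugate pump Abcg2 read lower, by -0.49 and -0.54 (adjusted p = 0.137 and 0.150). Of 19 other basolateral carriers, 7 were higher and 12 lower with none past the test (2 at an unadjusted p under 0.05). Slc10a2, the ileal bile acid carrier that cholangiocytes also express, differed by -1.37 and -1.42 at its 2 probes (adjusted p = 0.124 and 0.1175). Its first probe fell by 0.95 with the value table (adjusted p = 0.0431) and by 0.93 without LKO pool 3 (adjusted p = 0.0462). Slc10a6 differed by -0.53 (adjusted p = 0.164) and Slc51b, a subunit of the heteromeric sinusoidal exporter, by 0.12 (0.87 from the value table). Slc51b was well above background on 2 control arrays and 3 LKO arrays, and its partner Slc51a was too dim to test. Only 4 of 11 other Slco genes were testable, and 2 were higher and 2 lower. Of the 2 higher genes, 1 was well above background on 1 control array and 3 LKO arrays. Slco1a5 differed by 0.93 (adjusted p = 0.159, and 0.52 from the value table) and Slco3a1 by -0.24 (-0.11 from the value table). None passed (1 at an unadjusted p under 0.05).

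The remaining lists likewise held no probe past the test on the 6 arrays. Of 21 canalicular scaffold and tight junction genes 14 were lower (median -0.08; 4 at an unadjusted p under 0.05), with Ceacam1 at -0.71 (adjusted p = 0.152) and at -0.29 and -0.25 by its other probes. The median was -0.16 from the value table. Of 26 growth hormone and male-biased genes 17 were lower (median -0.17; 7 at an unadjusted p under 0.05), with Susd4 at -1.25 (adjusted p = 0.0642) and Cux2 well above background on 3 LKO arrays and 0 control arrays. Their median was -0.07 from the value table (14 of 26 lower) and -0.08 when LKO pool 3 was left out. Cux2 entered the test through the LKO group alone. It read -7.11, -6.73 and -7.34 in control pools and -5.63, -4.23 and -4.90 in LKO pools. In the value table its LKO pool 3 read -6.69, close to control pool 2. Of 21 CAR and PXR target enzymes 11 were higher (median 0.06; 4 at an unadjusted p under 0.05). Among them Cyp2b10, the standard CAR target, had a difference of -2.27 (adjusted p = 0.126), or -1.24 from the value table, and Papss2 one of -0.33. Of 21 NRF2 target genes 13 were higher (median 0.08; 5 at an unadjusted p under 0.05), and 18 from the value table (median 0.20; 0.25 when LKO pool 3 was left out), with Gclc at -0.85 (adjusted p = 0.0765) and Gsta3 at 0.36 (adjusted p = 0.130). Ceacam1, Susd4 and Gclc fell past the threshold when the value table was used (adjusted p = 0.0429, 0.0465 and 0.0431). The same 3 fell without LKO pool 3, where Txnrd1 of the NRF2 list rose by 0.56 (adjusted p = 0.0482). Txnrd1 differed by 0.42 on the 6 arrays (adjusted p = 0.1685) and by 0.47 from the value table (adjusted p = 0.0687).

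**Figure D4:**
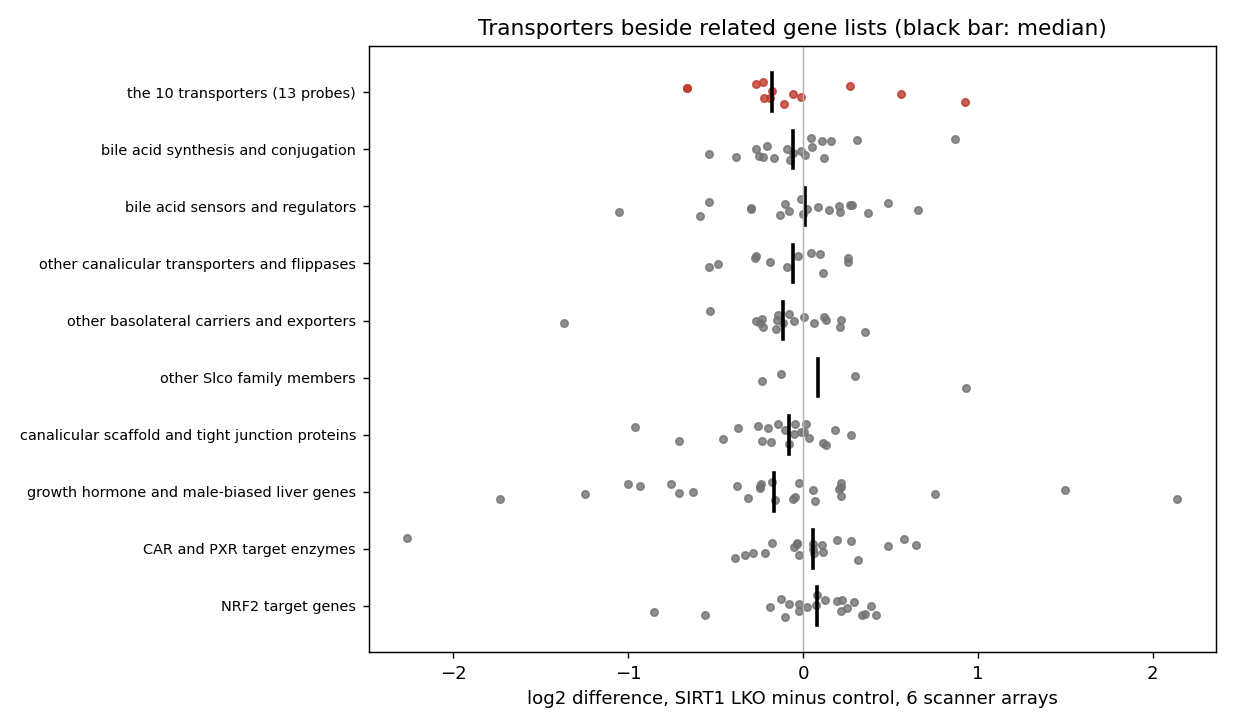
Each dot is the log2 difference (SIRT1 LKO minus control, 6 scanner arrays) of 1 tested probe of the 10 transporters or of 1 tested gene of a related list, and the black bar is the list's median. The transporters have a median of -0.18 and the other lists medians between -0.17 and 0.08.

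Markers of the other cells in liver were measured beside these values. No marker list had a gene past the test on the 6 arrays, and their summed linear levels overlapped between the groups except for stellate and kidney genes. Such a sum weighs its brightest probes most and is not the level of a cell type. Of 11 hepatocyte markers 8 were higher (median 0.16, and 0.27 with the value table). Of 13 cholangiocyte markers 10 were higher (median 0.27), and without LKO pool 3 Mmp7 rose by 1.29 and Sox9 fell by 1.06 (adjusted p = 0.0477 for both). On the 6 arrays Mmp7 differed by 1.33 and Sox9 by -1.12 (adjusted p = 0.0581 and 0.0654). From the value table they differed by 1.65 and -0.645 (adjusted p = 0.06125 and 0.289). There Sox9 read -1.58 in LKO pool 3, above the control pools at -1.92, -1.60 and -1.80. Mmp7 was well above background on 1 control array and 3 LKO arrays. Of 14 Kupffer cell and macrophage markers 12 were lower (median -0.18, and 0.20 with the value table). Endothelial markers had a median of 0.03 (8 of 14 higher) and stellate markers of 0.14 (9 of 13 higher; 0.34 with the value table). The summed stellate level was 57.0 to 63.0 in controls and 50.6 to 56.1 in LKO, and its brightest probe, that of Dcn, averaged 5.24 and 4.84. Pericentral hepatocyte genes, the zone in which Slco1a4 is known to be expressed, had a median of 0.03 (6 of 11 higher) and periportal genes of 0.00 (5 of 10 higher; 9 of 10 with a median of 0.14 in the value table). Kidney genes, fixed as a check for another tissue, were tested for 3 of 8 and all 3 were lower (summed level 0.53 to 0.60 in controls and 0.30 to 0.48 in LKO). The cholangiocyte marker Sctr and the kidney genes Slc34a1, Slc12a1, Kap and Nphs1 were not well above background on any array. The part of any of these in the transporter values was not tested.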

How the data were processed

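Liver RNA pools were measured on 6 Agilent 1-colour whole mouse arrays of 45018 spots. The deposited scanner files hold spot intensity, background-subtracted and detrended per the file headers. The submitters' processing notes name Feature Extraction 9.5. Other per-spot marks (well above background, saturated, outlier, low-gain scan) are deposited as 0 or 1. The deposited value table holds linear intensity from the Rosetta Resolver error model, per the labels. It is neither centred nor log-scaled; its column medians were 74.5, 62.5 and 62.9 for controls and 62.0, 62.5 and 62.6 for LKO pools 1 to 3. How its last column came to differ from the scanner file is not stated in the labels.

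Control spots were left out, outlier spots set missing, spots of a probe averaged after log2 and the array's 75th percentile subtracted. Probes well above background on all 3 arrays of a group were tested with limma 3.58.1 in R 4.3.3 (lmFit and eBayes, genotype only, two-sided, Benjamini-Hochberg, threshold 0.05). All probes of the 10 genes were reported singly. For list genes the brightest probe stood for the gene. Other genes named were Sirt1, 11 genes chosen without regard to result (Nr1h4, Nr0b2, Cyp7a1, Cyp8b1, Hnf4a, Nr1i2, Nr1i3, Slc51a, Slc51b, Abcg2, Alb) and, per list, those past the threshold or else the 2 with the smallest p. Of the genes this rule names, 1 is not reported here. Cebpb, Txnrd1, Mmp7, Sox9 and Dcn were named after their values were seen. Members and lists were chosen with earlier results of these data known. Names were updated through RefSeq (GRCm38.p6), which matched 22951 of 41174 probes. Replicates are pools of 2 animals, so p-values measure the spread between pools, and their number limits the precision.

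Tested on simulated data (23546 probes, 200 changed, 20 simulations), 14.0% of changes of 1.5-fold, 53.9% of those of 2-fold and 85.2% of those of 4-fold were recovered, with 0 in the wrong direction and a mean of 5.15 false calls. The simulated noise was independent between probes and arrays and held no slide effect. These rates therefore do not cover differences between slides. Alternatives were normexp (offset 50), quantile normalization, median centring, no filter, a filter on all 6 arrays, outlier spots kept, 1 probe per gene, slide as a random block, replicate number as a block, array weights, robust variance with an intensity trend, values of the deposited table, and each replicate left out. Replicate numbers did not pair the pools. Figures were drawn with matplotlib 3.10.9.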

Additional observations from a re-analysis of the deposited data

How the results depend on the processing

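On the 6 scanner arrays 15 of all tested probes (1 higher and 14 lower) and 0 transporter probes passed the test. The count over all probes was 0 with normexp, without a filter on dim probes and with the slide as a random block, 17 with quantile normalization (4 higher and 13 lower), 49 with the filter on all 6 arrays, 24 with 1 probe per gene, 91 with the intensity trend and 294 with the value table. Leaving out each replicate gave 0 to 698, with 698 only without LKO pool 3. Array weights gave 9461, with a weight of 8.47 for control pool 2 and 0.205 for LKO pool 3. The transporter count was 1 with the intensity trend (Slco2b1, adjusted p = 0.0405), 7 with array weights, 3 with the value table and 0 to 3 with each replicate left out, with 3 only without LKO pool 3. It was 0 under every other alternative run, with 2 to 7 at an unadjusted p under 0.05.

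With the replicate number as a block, 0 of all probes and 0 transporter probes passed. Deviations of same-numbered pools correlated at 0.01, -0.04 and -0.09, so the pools share only a number.

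The differences of 9 of the 13 tested probes kept their direction under every alternative run for them (1 probe per gene leaves out the upstream probes of Abcb4 and Abcc3). The others were Slco1a1 (first probe 0.036 with array weights; second probe 0.12 with array weights and -0.24 to 0.078 with each replicate left out, the highest without LKO pool 3), Abcb11 (0.0051 with the value table) and Abcc4 (0.099 with normexp, 0.025 with array weights and -0.077 to 0.093 with each replicate left out, above 0 without control pool 3 and, at 0.043, without LKO pool 2). The cause was not tested. Slco2b1 ranged from 0.50 to 0.58, with adjusted p from 0.00298 to 0.72. The tested Abcc4 probe was well above background on every array, and the other probe on 1 control array only.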
